A study of Mus musculus with 29 samples.

Results

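Zp1, Zp2, Zp3, Gdf9, Bmp15, Fgf8 and Oosp1 are 7 genes that encode proteins secreted by the oocyte, and their RNA was followed in mouse ovaries that had or lacked Cdkn1b, the gene for the cyclin-dependent kinase inhibitor p27. They were taken by name from a table of 51912 gene IDs, in which all 7 were present. The series held 29 libraries from ovary cells of mice labelled Cdkn1b +/+ (wild type) or Cdkn1b -/- (Cdkn1b-null), at 2 fetal ages, embryonic days 13.5 (E13.5) and 18.5 (E18.5), and 2 postnatal ages, day 8 (PND8) and 12 weeks (12wk). The wild type had 4 libraries at each age, and the Cdkn1b-null had 4 at E18.5 but 3 at every other age. The question was how cell cycle control acts in the developing ovary. Ovaries were dissociated with papain before RNA was extracted. Strain, the number of animals behind a library, and whether libraries of a group came from separate animals were not given in the sources used here, so the p-values measure the spread between these libraries, which may be partly technical.

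The zona pellucida is the glycoprotein coat that a growing oocyte lays around itself, and ZP1, ZP2 and ZP3 are its structural proteins in the mouse. GDF9 and BMP15 are ligands of the transforming growth factor beta family that the oocyte sends to the surrounding granulosa cells, and FGF8 is a fibroblast growth factor that acts with BMP15 on cumulus cells. OOSP1 is an oocyte secreted protein. Most of these genes are switched on as primordial follicles form and oocytes begin to grow, and the transcription factors FIGLA and NOBOX are known regulators of this programme. Loss of p27 in mice is known for early activation of primordial follicles, followed by their early depletion.

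By the GENCODE M21 annotation of GRCm38, Zp1 (ENSMUSG00000024734) lies on the minus strand of chromosome 19 from 10914287 to 10920632, in 12 exon blocks. Zp2 (ENSMUSG00000030911) lies on the minus strand of chromosome 7 from 120126772 to 120145291, in 18 exon blocks. Zp3 (ENSMUSG00000004948) lies on the plus strand of chromosome 5 from 135980099 to 135988624, in 8 exon blocks. Gdf9 (ENSMUSG00000018238) lies on the plus strand of chromosome 11 from 53431023 to 53437904, in 4 exon blocks. Bmp15 (ENSMUSG00000023279) lies on the minus strand of chromosome X from 6314107 to 6320721, in 2 exon blocks. Fgf8 (ENSMUSG00000025219) and Oosp1 (ENSMUSG00000041857) lie on the minus strand of chromosome 19, from 45736798 to 45742915 in 6 exon blocks and from 11667460 to 11691150 in 5 exon blocks. No other annotated gene overlapped any of the 7.

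Promoters are shown for Zp3, Oosp1 and Bmp15, the 3 of the 7 genes with an entry in the RefSeq promoter table (GRCm38.p6), because these genes rose together from E18.5 to PND8. Each sequence is the 250 bases before the start in that table, 5′ to 3′ on the gene's own strand. These starts differ from the GENCODE M21 starts given above: the Zp3 and Oosp1 windows reach 6 and 99 bases into the GENCODE genes, and the Bmp15 window lies outside its gene. Capitals mark the E-box, CANNTG, the motif that basic helix-loop-helix factors such as FIGLA bind.
Zp3, chr5:135979855-135980104, plus strand: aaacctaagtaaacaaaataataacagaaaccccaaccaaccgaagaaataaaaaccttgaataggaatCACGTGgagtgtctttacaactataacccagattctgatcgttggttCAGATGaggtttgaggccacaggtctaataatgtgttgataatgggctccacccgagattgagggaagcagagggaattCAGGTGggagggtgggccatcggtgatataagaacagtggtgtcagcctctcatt
Oosp1, chr19:11691052-11691301, minus strand: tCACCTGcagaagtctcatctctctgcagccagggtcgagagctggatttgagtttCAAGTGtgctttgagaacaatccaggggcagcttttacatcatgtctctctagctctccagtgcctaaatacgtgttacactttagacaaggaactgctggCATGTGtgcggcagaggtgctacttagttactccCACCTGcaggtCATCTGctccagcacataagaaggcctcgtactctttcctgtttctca
Bmp15, chrX:6320725-6320974, minus strand: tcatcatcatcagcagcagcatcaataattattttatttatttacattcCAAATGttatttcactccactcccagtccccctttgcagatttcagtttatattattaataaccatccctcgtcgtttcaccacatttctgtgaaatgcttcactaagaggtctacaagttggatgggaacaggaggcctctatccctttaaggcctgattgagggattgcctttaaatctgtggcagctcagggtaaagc
The Zp3 window held 3 E-boxes, of which CACGTG began 181 bases before the start, CAGATG 134 bases before and CAGGTG 55 bases before. The Oosp1 window held 5 E-boxes and the Bmp15 window 1, CAAATG, 201 bases before the start. Over 32851 promoters of the same length, searched on both strands, 66.2% held at least 1 E-box and 12.2% at least 3. The homeobox core TAATTA was found in the Bmp15 window 225 bases before the start and in 4.84% of all promoters, and the other core searched, TAATTG, was in none of the 3 windows and in 7.17% of all. TATAAG, in 6.65% of all promoters, lay 29 bases before the Zp3 start. TATAAA, in 12.4% of all, lay on the other strand of the Bmp15 window, 155 bases before the start. These matches are descriptions of letters, not of factor binding.

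Library totals were 14095601 to 48213177 expected counts, so that 3 counts, used as the detection floor, stood for 0.0622 to 0.213 counts per 1000000 counts (CPM). CPM were scaled to 1 set of normalization factors over all 29 libraries. Cdkn1b was lower in the libraries labelled Cdkn1b -/-, but its reads remained in them: mean wild-type and Cdkn1b-null CPM were 22.8 and 4.49 at E13.5, 103.0 and 12.7 for E18.5, 148.5 and 71.7 at PND8, and 183.3 and 51.2 at 12wk, and the libraries of the genotypes did not overlap at any age. The Cdkn1b-null libraries still held 64.3 to 80.7 CPM of Cdkn1b at PND8, and which part of the gene was deleted is not given in the sources used here. Because these are bulk libraries, fewer oocytes and less RNA per oocyte cannot be told apart.

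The 3 zona genes had their highest group means at PND8 and far lower ones before birth and at 12wk. Zp2 at PND8 had 187, 46.2, 43.1 and 213 CPM in the wild-type libraries and 133, 309 and 176 CPM in the Cdkn1b-null libraries. At E18.5 its level was 0.42, 2.85, 0.24 and 1.04 CPM in wild type and 0.12, 1.15, 1.54 and 0.81 CPM in Cdkn1b-null. Every PND8 library was therefore above every E18.5 library in both genotypes. At E13.5 Zp2 had 2 counts over the 4 wild-type libraries and 0 in all 3 Cdkn1b-null libraries. At 12wk it was 1.75, 1.10, 15.6 and 7.12 CPM in wild type and 0.85, 1.43 and 1.21 CPM in Cdkn1b-null, with the third wild-type library far above the rest.

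**Figure D1:**
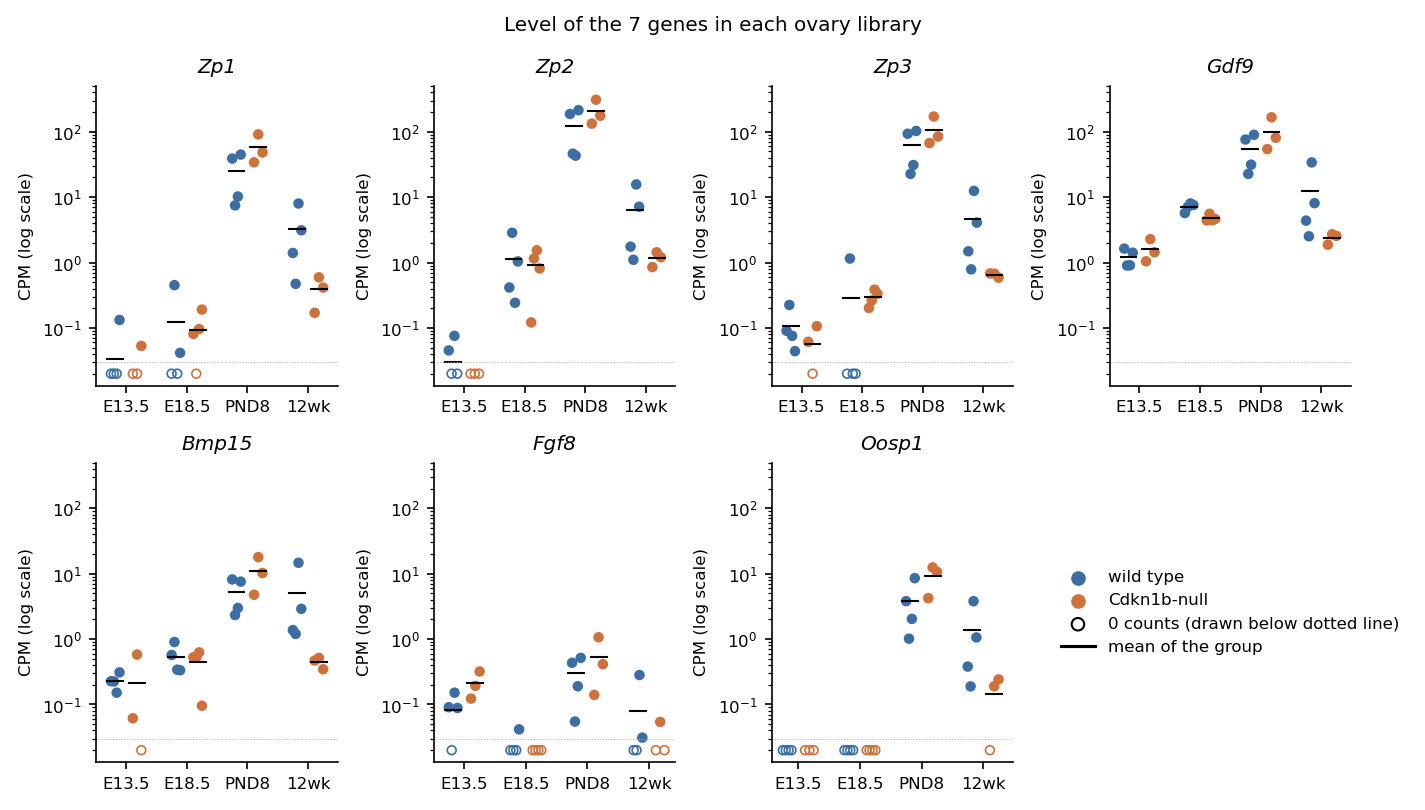
Level of each of the 7 genes in each library, in CPM on a log axis, by age and genotype; points are libraries, bars are group means and open circles mark libraries with 0 counts. All 7 genes had their highest group mean in Cdkn1b-null ovary at PND8, and Oosp1 was at 0 in all 15 fetal libraries.

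Zp3 encodes the zona protein that pairs with ZP2 in the zona filaments, and it followed the same course. It was 93.2, 22.7, 31.0 and 103 CPM in wild type and 67.0, 171 and 84.5 CPM in Cdkn1b-null at PND8. At 12wk it was 1.49, 0.79, 12.5 and 4.08 CPM in wild type and 0.68, 0.68 and 0.59 CPM in Cdkn1b-null, where the highest Cdkn1b-null library was below the lowest wild-type library. At E18.5 the wild type had 0 counts in 3 libraries and 1.15 CPM in replicate 2, while the Cdkn1b-null libraries lay between 0.20 and 0.38 CPM. Zp1, the protein that cross-links the filaments, was the lowest of the 3 per kilobase of exon, with a mean of 12.8 CPM per kilobase in wild type at PND8 against 44.9 for Zp2 and 47.2 for Zp3. Its level was 38.9, 7.48, 10.2 and 44.7 CPM in wild type and 34.0, 91.0 and 48.2 CPM in Cdkn1b-null at PND8, and 1.40, 0.47, 7.99 and 3.11 CPM against 0.17, 0.60 and 0.41 CPM at 12wk. In each zona gene the same 2 wild-type libraries at PND8, replicates 2 and 3, were the low ones.

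Gdf9 was the only one of the 7 well above the floor in every library. At E13.5 it was 1.63, 0.90, 0.91 and 1.41 CPM in wild type and 1.04, 2.28 and 1.43 CPM in Cdkn1b-null. At E18.5 the wild-type libraries were 5.71, 7.06, 8.02 and 7.58 CPM and the Cdkn1b-null libraries 4.41, 5.56, 4.42 and 4.63 CPM. These groups did not overlap, although the gap between the highest Cdkn1b-null and the lowest wild-type library was small. At PND8 Gdf9 was 76.0, 22.7, 31.4 and 89.7 CPM in wild type and 54.2, 166 and 80.9 CPM in Cdkn1b-null, and at 12wk 4.38, 2.52, 33.9 and 8.09 CPM against 1.88, 2.71 and 2.55 CPM.

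Bmp15, the X-linked partner of Gdf9, was far below Gdf9 per kilobase of exon at PND8, with a mean of 1.72 against 27.0 CPM per kilobase in wild type. Its level was 8.16, 2.33, 2.98 and 7.54 CPM in wild type and 4.76, 17.9 and 10.2 CPM in Cdkn1b-null. At 12wk its wild-type libraries held 1.37, 1.20, 14.7 and 2.89 CPM, and its Cdkn1b-null libraries 0.47, 0.51 and 0.35 CPM, all below the wild type. Before birth its group means were 0.21 to 0.54 CPM. Oosp1 had 0 counts in all 15 fetal libraries, then 3.80, 1.01, 2.03 and 8.52 CPM in wild type and 4.22, 12.4 and 10.7 CPM in Cdkn1b-null at PND8. At 12wk it was 0.38, 0.19, 3.79 and 1.06 CPM in wild type and 0, 0.19 and 0.24 CPM in Cdkn1b-null. Fgf8 was close to the floor throughout. Its counts at PND8 were 13, 2, 7 and 19 in wild type and 6, 36 and 13 in Cdkn1b-null, and its only other library above 6 counts was the third wild-type library at 12wk, with 9.

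The first and second places in the order of the group means went to the same age. For every gene the first place was PND8 Cdkn1b-null and the second PND8 wild type, and libraries of these neighbours overlapped for all 7. For Zp2 and Zp3 the PND8 wild type was separated from the next group, 12wk wild type, with no overlap between libraries, whereas for Zp1, Gdf9, Bmp15 and Oosp1 the same neighbours overlapped. For Zp3, and for Bmp15, the 12wk wild type was also separated from the group next below it. Below PND8 the order did not follow age alone. For Gdf9 and Bmp15 both E18.5 groups came between 12wk wild type and 12wk Cdkn1b-null. The Bmp15 means of E18.5 and 12wk Cdkn1b-null were nearly equal, at 0.4429 and 0.4427 CPM.

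From E13.5 to E18.5 only Gdf9 passed the low-count filter in the wild type, and it rose 5.73-fold (log2 fold change 2.52 ± 0.299 SE, adjusted p = 0.000207, edgeR quasi-likelihood test with Benjamini-Hochberg adjustment over all tested genes). In that step 16.6% of all tested genes were called higher. In Cdkn1b-null ovary 3 of the 7 were tested, and Gdf9 rose 2.98-fold (1.58 ± 0.32 SE, adjusted p = 0.00639) beside 15.8% of all genes. Zp2 was also called higher there (adjusted p = 0.0119). Since its 3 earlier libraries were at 0, it was at least 5.92-fold higher, against a mean floor of 3 counts per library. Both calls were lost when all groups were fitted together (adjusted p = 0.0809 for Gdf9 and 0.0604 for Zp2), and Zp2 no longer passed the filter without E18.5 Cdkn1b-null replicate 2, 3 or 4, which left 1 call.

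From E18.5 to PND8, 6 of the 7 passed the filter and all 6 rose in both genotypes, beside 37.6% of all tested genes called higher in wild type and 38.9% in Cdkn1b-null. Zp1, Zp3 and Oosp1 were at or near 0 counts at E18.5 and did not pass the filter between genotypes at that age. They entered this step through their PND8 counts, so the direction of their change was set by the filter. In wild type the log2 fold changes were 7.71 ± 1.03 SE for Zp3, 7.59 ± 1.01 for Zp1 and 6.66 ± 0.887 for Zp2. The size of these values rests on E18.5 wild-type replicate 2. Without it Zp2 was at 7.64. In the remaining E18.5 wild-type libraries Zp1 had 0, 0 and 1 counts and Zp3 was at 0 in all. The fitted 10.28 for Zp1 and 13.83 for Zp3 are therefore no measures of size. The fitted values of the growth factors were 2.87 ± 0.427 for Gdf9 and 3.21 ± 0.539 for Bmp15. Oosp1 was at least 26.7-fold higher, because all its earlier libraries were at 0. The adjusted p-values ran from 7.21e-05 to 0.000469. In Cdkn1b-null ovary the changes were 8.45 for Zp3, 9.16 for Zp1, 7.82 for Zp2, 4.35 for Gdf9 and 4.57 for Bmp15, with adjusted p-values of 1.25e-06 to 5.95e-05, and Oosp1 was at least 64.3-fold higher. The value for Zp1 rests on 2, 0, 2 and 4 counts at E18.5. Fgf8 did not pass the filter in either genotype. In Cdkn1b-null ovary its PND8 mean was 3.8-fold above the mean floor of its 4 E18.5 libraries, which were all at 0. That mean rests on replicate 3, at 1.06 CPM, while replicate 4 was at 0.41 CPM. Replicate 1, at 0.14 CPM, was no higher than that floor of 0.1416 CPM. The wild-type and Cdkn1b-null steps share no library.

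General germ cell genes went the other way in the same step. Ddx4, an RNA helicase of germ cells at every stage, fell from E18.5 to PND8, with log2 fold changes of -3.10 in wild type (adjusted p = 8.1e-05) and -1.96 in Cdkn1b-null (adjusted p = 0.000482). Of the 7 general germ cell genes listed, 6 were called lower in that step in each genotype. Of all tested genes, 36.9% were called lower in wild type and 38.5% in Cdkn1b-null. The medians of the list were -3.36 and -3.34 against 0.01 and -0.01 over all tested genes. Gdf9 therefore went from 0.128 to 0.242 counts per Ddx4 count in the wild-type libraries at E18.5 to 7.14 to 13.9 at PND8. Figla rose first, from 0.23 ± 0.219 CPM (SD, n = 4) at E13.5 to 44.4 ± 27.1 at E18.5 in wild type, and then fell to 3.74 ± 2.42 at PND8 while the zona genes reached their highest level. Nobox was at 18.9 ± 15.9 CPM at E18.5 and 20.8 ± 13.1 CPM at PND8 in wild type, with overlapping libraries.

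**Figure D2:**
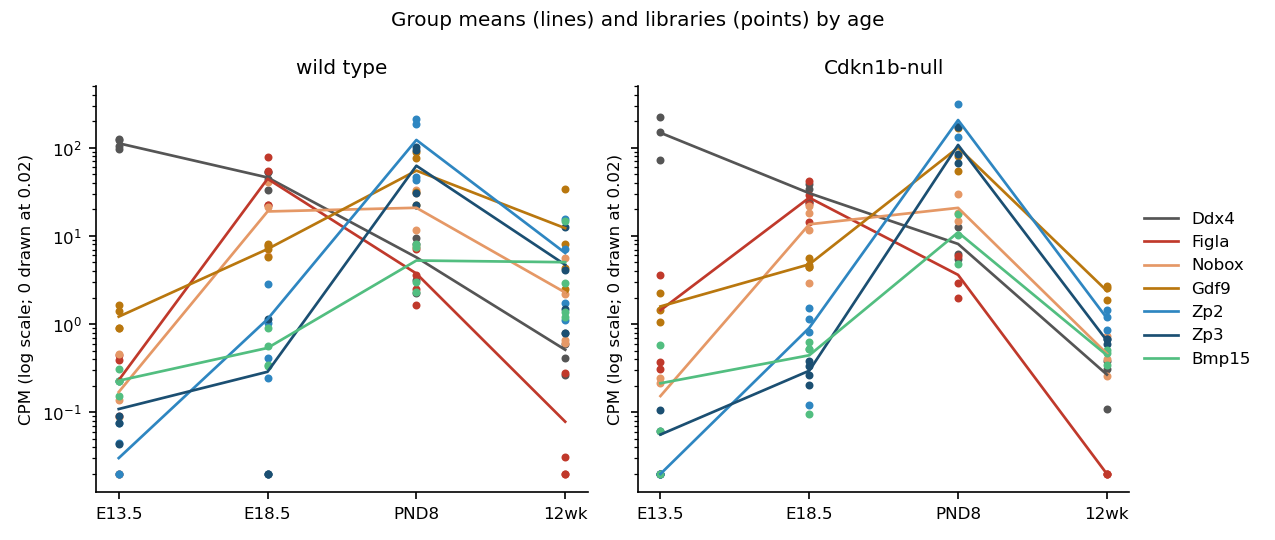
Mean level by age in CPM on a log axis (lines) and each library (points) for 4 of the 7 genes and for Ddx4, Figla and Nobox, in wild type and Cdkn1b-null ovary; 0 is drawn at 0.02. Figla was highest at E18.5, whereas Gdf9, Bmp15, Zp2 and Zp3 were highest at PND8.

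Other oocyte genes followed the same step. Of 22 listed oocyte genes outside the 7, such as the maternal-effect genes Nlrp5 and Padi6, 17 were called higher at PND8 than at E18.5 in wild type and 18 in Cdkn1b-null. Their medians were 4.17 and 5.55 on the log2 scale against 0.01 and -0.01 over all tested genes. Only 10 of the 22 passed the filter between genotypes at E18.5, so others entered this step through their PND8 counts, which set their direction. Padi6 rose by 8.46 ± 0.715 SE and Nlrp5 by 6.20 ± 0.826 in wild type. Of 9 transcription factors of oocyte growth, 3 were called higher and 5 lower in each genotype, with medians of -0.89 and -0.88. Over all tested genes, 37.6% were called higher and 36.9% lower in wild type, and 38.9% higher and 38.5% lower in Cdkn1b-null.

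From PND8 to 12wk the zona genes fell in both genotypes. This step shares the PND8 libraries with the one before it. In wild type 5 of 6 tested genes had a lower fitted level at 12wk, and edgeR called 3 lower, beside 14.3% of all genes. The called genes were Zp2 with a log2 fold change of -4.19 ± 0.928 SE (adjusted p = 0.00975), Zp3 with -3.66 ± 0.874 (adjusted p = 0.0134) and Zp1 with -2.90 ± 0.88 (adjusted p = 0.036). Gdf9 missed the threshold at -2.10 ± 0.809 (adjusted p = 0.0813), as did Oosp1 at -1.43 ± 0.931 (adjusted p = 0.283). Bmp15 had nearly the same fitted level at both ages, with a log2 fold change of 0.01 ± 0.821 (adjusted p = 0.996). That value rests on 12wk wild-type replicate 3: without it Bmp15 was at -1.44 (adjusted p = 0.0875), and 5 of the 6 genes were called lower. The call for Zp1 was lost without PND8 wild-type replicate 1 or 4, or without 12wk wild-type replicate 1, 2 or 4, with adjusted p up to 0.09. Without a filter on low counts none of the 3 was called.

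In Cdkn1b-null ovary all 6 tested genes were called lower at 12wk than at PND8, also beside 14.3% of all genes. Oosp1 had 0, 7 and 7 counts at 12wk and passed the filter through PND8, so the direction of its change was set by the filter. The log2 fold changes were -7.34 ± 0.441 SE for Zp2, -7.28 ± 0.489 for Zp3 and -7.03 ± 0.566 for Zp1. They were -5.79 ± 0.814 for Oosp1, -5.29 ± 0.5 for Gdf9 and -4.53 ± 0.55 for Bmp15, and the adjusted p-values ran from 0.00079 to 0.00353. Libraries of the 2 ages did not overlap for any of the 6, but the share of all tested genes without overlap was not counted for this step. Of the 22 other oocyte genes, 21 had a lower fitted level at 12wk than at PND8 in each genotype. Of these, 20 were called lower in Cdkn1b-null ovary and 11 in wild type.

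The genotypes were compared at each age. At E13.5 only Gdf9 was tested, with a log2 fold change, Cdkn1b-null minus wild type, of 0.35 ± 0.436 SE (unadjusted p = 0.449, adjusted p = 0.988). The calls over all tested genes came to 0.00606%, and an unadjusted p under 0.05 was seen for 3.49%. At E18.5 edgeR called none of 3 tested, beside 4.99% of all genes, and 1 of the 3 had an unadjusted p under 0.05, where 22.1% of all genes did. Gdf9 was at -0.61 ± 0.193 SE, with means of 7.09 ± 1.00 CPM (SD) over 4 wild-type and 4.76 ± 0.546 CPM over 4 Cdkn1b-null libraries, an unadjusted p of 0.0089 and an adjusted p of 0.0948 by edgeR and 0.0367 by DESeq2. Its libraries did not overlap, which held in this direction for 5.06% of all tested genes. Ddx4 differed by a like amount, -0.62 ± 0.193 (adjusted p = 0.0888), and Gdf9 counts per Ddx4 count overlapped between the genotypes, at 0.128 to 0.242 in wild type and 0.13 to 0.19 in Cdkn1b-null. Zp2 was at -0.38 ± 0.799 and Bmp15 at -0.30 ± 0.557, and both changed sign without E18.5 wild-type replicate 2, to 0.61 and 0.08.

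At PND8 all 7 genes were tested and all 7 had a higher fitted level in Cdkn1b-null ovary, but none was called, beside 0.349% of all genes. The log2 fold changes were 1.17 ± 0.73 SE for Zp1, 0.73 ± 0.696 for Zp2 and 0.76 ± 0.646 for Zp3. They were 0.85 ± 0.613 for Gdf9, 1.04 ± 0.595 for Bmp15, 0.83 ± 0.804 for Fgf8 and 1.23 ± 0.718 for Oosp1. The unadjusted p-values were 0.123 to 0.335 and none was under 0.05, where 15.0% of all tested genes were. DESeq2 called none of the 6 for which it gave an adjusted p. The libraries of the genotypes overlapped for all 7 genes, while 8.21% of all tested genes were higher in Cdkn1b-null without overlap. Cdkn1b-null replicate 3 was the highest of its group in every gene, and without it Gdf9 was at 0.28, Zp2 at 0.32 and Fgf8 at -0.14. Of the 22 other oocyte genes, with a median of 0.68 at PND8, none was called by edgeR or DESeq2 and 1 had an unadjusted p under 0.05, whereas Figla (-0.07 ± 0.556) and Nobox (-0.03 ± 0.576) were near 0.

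At 12wk the sign was the opposite: all 6 tested genes had a lower fitted level in Cdkn1b-null ovary, and again none was called after adjustment, beside 0.0115% of all genes. Oosp1 had 0, 7 and 7 counts in the Cdkn1b-null libraries and passed the filter only through the wild type. Its sign was therefore set by the filter. Bmp15 had the largest difference, at -3.50 ± 1.02 SE, with means of 5.03 ± 6.46 CPM (SD) over 4 wild-type and 0.443 ± 0.0874 CPM over 3 Cdkn1b-null libraries. Zp1 was at -3.01 ± 0.976, Zp2 at -2.46 ± 0.919, Zp3 at -2.85 ± 0.951, Gdf9 at -2.36 ± 0.886 and Oosp1 at -3.14 ± 1.26. All 6 unadjusted p-values were under 0.05, from 0.00956 to 0.0377, where 9.63% of all tested genes were, and the adjusted p-values were 0.408 to 0.491. These genes varied together between libraries of a group, so they are not 6 separate observations. DESeq2 called 3 of them, Zp1, Zp3 and Bmp15, and 326 of all 17396 genes, against 2 by edgeR. For Zp3 and Bmp15 the libraries did not overlap, which held in this direction for 3.97% of all tested genes. Replicate 3 of the wild type carried much of the size: without it Bmp15 was at -2.06, Zp1 at -2.08, Zp3 at -1.73, Zp2 at -1.54 and Gdf9 at -1.09, still below 0, with adjusted p-values of 0.471 to 0.638, and Oosp1 no longer passed the filter.

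**Figure D3:**
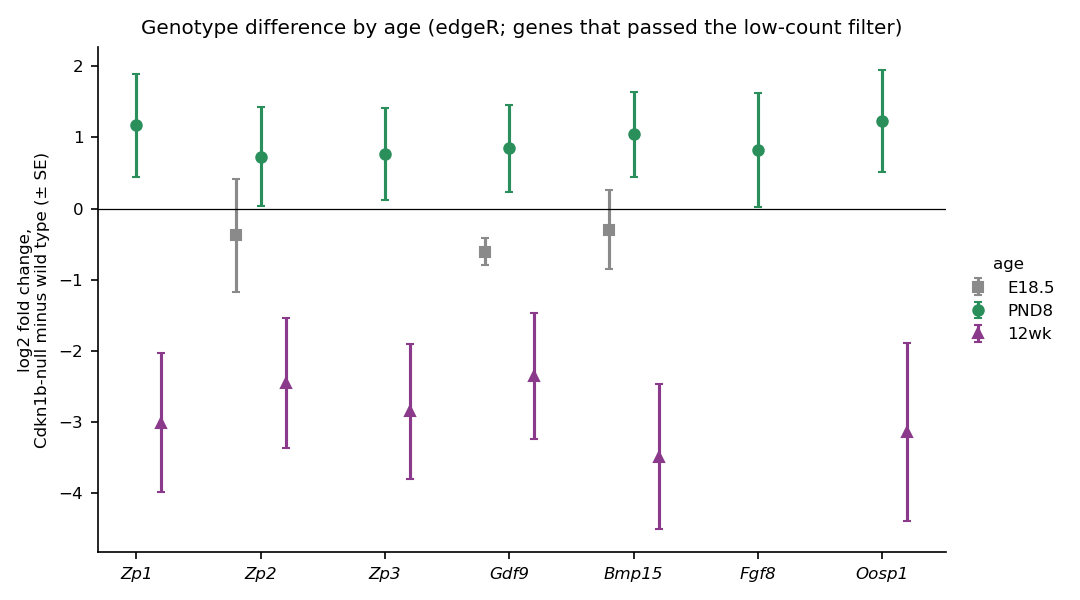
Genotype difference of each gene at E18.5, PND8 and 12wk as a log2 fold change, Cdkn1b-null minus wild type, with its standard error; only genes that passed the low-count filter are drawn. The 7 values at PND8 lie above 0 and the 6 values at 12wk below 0, and none passed the edgeR test after adjustment. At 12wk Oosp1 passed the filter only through the wild type.

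Other cell type markers were measured in the same libraries. At 12wk the summed CPM of the 7 genes was 6.27 to 88.7 in wild type and 4.05 to 6.17 in Cdkn1b-null, and that of the 22 other oocyte genes 214 to 403 and 148 to 191. The 21 of those 22 that were tested had a median genotype difference of -2.70, with 15 at an unadjusted p under 0.05, none called by edgeR and 8 by DESeq2, against -0.95 ± 0.606 SE for Ddx4. Red blood cell markers were higher in Cdkn1b-null libraries at 12wk, with a summed level of 224 to 809 CPM against 86.0 to 162 CPM, and at PND8 they were at 160 to 1870 CPM against 7.92 to 190 CPM. edgeR called none of the 5 red cell genes tested at either age. At 12wk 4 of the 5 had an unadjusted p under 0.05 and DESeq2 called 3, and at PND8 neither held for any. The part of these cells in the values of the 7 genes was not tested. The summed level of 12 granulosa cell markers was 4780 to 5640 CPM in Cdkn1b-null and 3750 to 4930 CPM in wild type at PND8, and 3300 to 7580 CPM and 4510 to 7260 CPM at 12wk; all 12 were detected in every postnatal group.

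The change of the genotype difference from PND8 to 12wk was tested directly in 1 fit of all libraries. It was below 0 for all 6 tested genes, at -4.56 ± 1.11 SE for Bmp15, -4.40 ± 1.44 for Oosp1, -4.17 ± 1.1 for Zp1, -3.64 ± 1.08 for Zp3, -3.23 ± 0.839 for Gdf9 and -3.19 ± 1.09 for Zp2. The unadjusted p-values were 0.000383 to 0.0085, under 0.05 for 6 of 6 genes and for 7.47% of all genes. None passed after adjustment (adjusted p = 0.155 to 0.376), beside 0.0246% of all genes called. The 6 genes varied together between libraries of a group (Pearson's r of pairs 0.529 to 0.878 after group means were subtracted). They are therefore not 6 separate observations. DESeq2 called Gdf9 (adjusted p = 0.0182) and Bmp15 (adjusted p = 0.0133), but it called 134 of all 20359 genes, against 5 by edgeR. The median of the 6 was -3.91 and that of the 22 other oocyte genes -3.48, against -0.02 over all tested genes. Without 12wk wild-type replicate 3 the change was -3.09 for Bmp15 and -1.93 for Gdf9. Over all 4 ages the interaction was called for none of the 6 genes, beside 0.806% of all, with unadjusted p-values of 0.00379 to 0.0602, of which 4 were under 0.05, where 12.7% of all genes were. DESeq2 called 2 of the 6, and 706 of all 20359 genes, against 164 by edgeR.

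The balance among the genes was compared within each library, so that a factor common to both genes of a ratio cancels. Counts of Zp1, Zp2, Zp3 and Bmp15 were divided by those of Gdf9, and 16 ratios were tested with two-sided exact permutation tests adjusted over the 16. In wild type Zp2 went from 1.37 to 2.46 counts per Gdf9 count at PND8 to 0.40 to 0.88 at 12wk, a 3.90-fold lower geometric mean (exact permutation p = 0.0286, adjusted p = 0.114). In Cdkn1b-null ovary it went from 1.86 to 2.45 down to 0.45 to 0.53, a 4.43-fold lower mean (exact permutation p = 0.1, the smallest that 3 against 3 allows). Zp3 moved alike, 2.90-fold lower in wild type and 3.99-fold lower in Cdkn1b-null, with no overlap between ages in either.

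Bmp15 moved the other way. In wild type it went from 0.0841 to 0.107 counts per Gdf9 count at PND8 up to 0.313 to 0.475 at 12wk, a 4.02-fold higher geometric mean with no overlap (exact permutation p = 0.0286, adjusted p = 0.114). In Cdkn1b-null ovary it went from 0.0878 to 0.126 up to 0.135 to 0.25, 1.75-fold higher (exact permutation p = 0.1). At 12wk the Cdkn1b-null ratio was 2.10-fold below the wild type without overlap (exact permutation p = 0.0286, adjusted p = 0.114), from 10 to 19 Bmp15 counts a library. Zp1 per Gdf9 count was 0.326 to 0.511 in wild type and 0.549 to 0.628 in Cdkn1b-null at PND8, 1.45-fold higher without overlap (exact permutation p = 0.0857, adjusted p = 0.166). The smallest p these designs allow is 0.0286, or 0.1 for 3 against 3, so a pass after adjustment over the 16 was hardly attainable, and that none passed says nothing of the ratios. The ratio of Zp2, and that of Zp3, to Gdf9 did not separate the genotypes at either age.

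**Figure D4:**
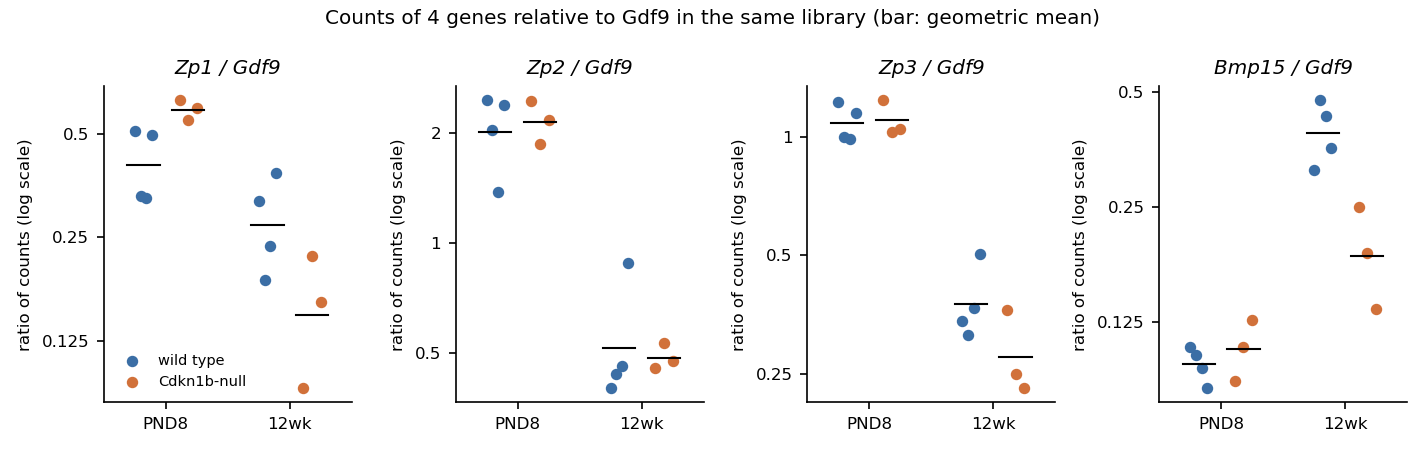
Counts of Zp1, Zp2, Zp3 and Bmp15 per Gdf9 count in each library at PND8 and 12wk, on log axes; bars are geometric means. The Zp2 and Zp3 ratios are lower at 12wk than at PND8 in both genotypes, and the Bmp15 ratio is higher at 12wk.

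Per kilobase of exon, which allows levels of different genes to be compared, Zp3 and Zp2 led at PND8 and Gdf9 led at 12wk. In wild type at PND8, Zp3 made up a median 34.2% of the summed CPM per kilobase of the 7 genes, Zp2 33.4%, Gdf9 20.4%, Zp1 8.91%, Oosp1 2.68%, Bmp15 1.41% and Fgf8 0.161%. At 12wk the wild-type medians were 38.3% for Gdf9, 20.8% for Zp3, 13.0% for Zp2, 10.4% for Zp1, 9.45% for Bmp15 and 7.66% for Oosp1. The Gdf9 share was 18.4 to 24.5% in the wild-type libraries at PND8 and 29.9 to 40.5% at 12wk. The 12wk Cdkn1b-null libraries had a Gdf9 share of 43.3 to 46.4%, above all 4 wild-type libraries, and a Bmp15 share of 4.15 to 7.7% against 7.11 to 12.8%.

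**Figure D5:**
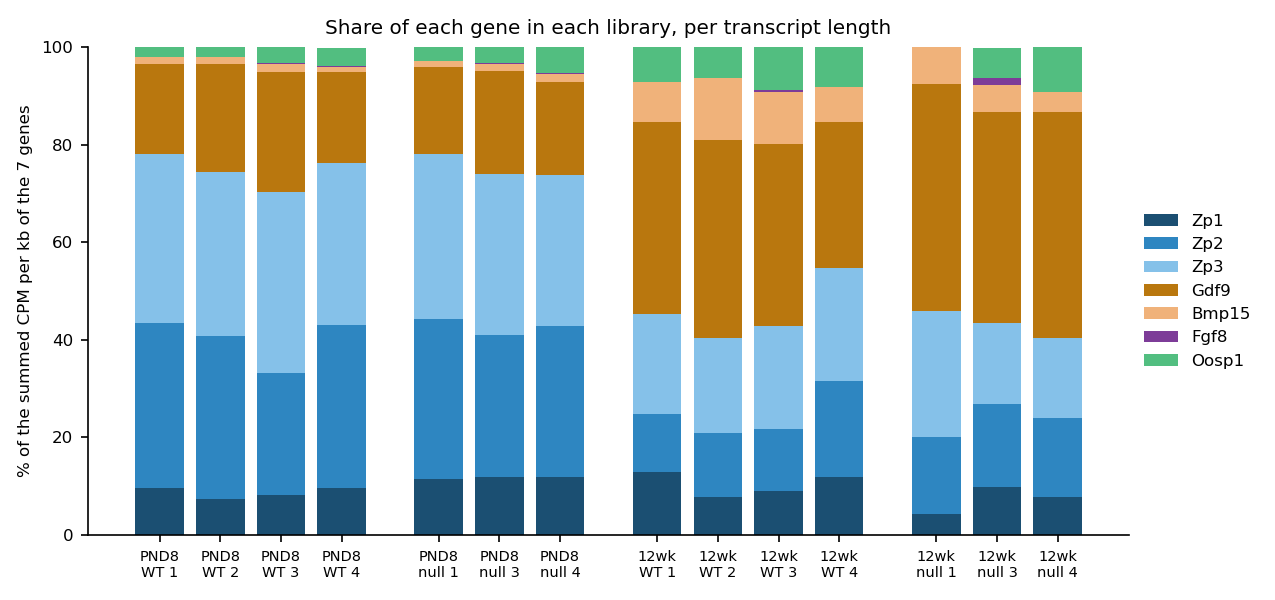
Share of each of the 7 genes in their summed CPM per kilobase, in percent, 1 bar per library at PND8 and 12wk. Gdf9 takes 18.4 to 24.5% of the wild-type bars at PND8 and 29.9 to 40.5% at 12wk.

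The genes through which these ligands act were described from gene lists. Of 15 receptors and signal carriers of GDF9, BMP15 and FGF8 (BMP, activin and FGF receptors and SMADs), 13 were called higher and 1 lower at PND8 than at E18.5 in each genotype. Their medians were 1.39 and 1.56 against 0.01 and -0.01 over all tested genes. Of all tested genes, 37.6% were called higher and 36.9% lower in wild type, and 38.9% higher and 38.5% lower in Cdkn1b-null. Between genotypes 1 of the 15 was called: Fgfr4, an FGF receptor, at PND8, with 13.7 ± 1.37 CPM (SD) over 4 wild-type libraries and 8.12 ± 0.245 over 3 Cdkn1b-null libraries (log2 fold change -0.76 ± 0.116 SE, adjusted p = 0.0473). That call was not stable: with a replicate block, with all groups in 1 fit, or without any 1 library other than Cdkn1b-null replicate 1, no gene of the list was called, and DESeq2 called 4. Of 20 granulosa and cumulus genes regulated by oocyte factors or FGF, 1 was called between genotypes: Npr2, the receptor that holds oocytes in meiotic arrest through cyclic GMP, at 33.1 ± 3.47 CPM in wild type and 15.5 ± 2.5 CPM in Cdkn1b-null at E18.5 (-1.12 ± 0.142 SE, n = 4 and 4, adjusted p = 0.0019). At 12wk, when the 6 tested genes had their lower fitted levels, edgeR called none of the 20, 3 had an unadjusted p under 0.05, DESeq2 called 1, and their median was 0.05.

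Of the 12 granulosa markers, 3 were called higher in Cdkn1b-null ovary at E18.5, namely Inha (1.14 ± 0.188 SE), Hsd17b1 (2.03 ± 0.324) and Cyp19a1 (2.51 ± 0.489), and Kitl, the Kit ligand, was called at PND8 (0.87 ± 0.137). Of all tested genes, 4.99% were called at E18.5 and 0.349% at PND8. The granulosa list had 2 calls at E18.5 without wild-type replicate 4, or without Cdkn1b-null replicate 3 or 4. Cyp19a1 was low at E18.5, with a mean of 0.457 CPM in wild type and 2.68 CPM in Cdkn1b-null. Hsd3b1, a steroid enzyme in the theca and luteal list, was called higher at E18.5 (0.75 ± 0.189). Of the stromal markers, Tcf21 was called lower at E18.5 (-0.78 ± 0.195) and Pdgfra at PND8 (-0.86 ± 0.136). The calls of Kitl, Hsd3b1, Tcf21 and Pdgfra lay just under the threshold (adjusted p = 0.0473, 0.0478, 0.0456 and 0.0473) and were not stable. With a replicate block none of their lists had a call at that age. With all groups in 1 fit there was none for the granulosa and stromal lists at PND8 or the theca and luteal list at E18.5, and the latter also had none with no filter on low counts. No granulosa marker was called at PND8 when 1 library was left out, other than without wild-type replicate 3, which gave 2 calls. For the theca and luteal list at E18.5 the same held, other than without wild-type replicate 1, with 1 call. Of the fits that left out 1 library, the stromal list had calls at E18.5 only without wild-type replicate 2 (4 calls) or Cdkn1b-null replicate 1 (1 call), and at PND8 only without wild-type replicate 3 (2 calls) or Cdkn1b-null replicate 1 (1 call). No gene of the lists of egg surface and zona processing partners, oocyte transcription factors, other oocyte genes, general germ cell genes, endothelium, immune cells, red cells or oviduct and surface epithelium was called between genotypes at any age by edgeR with all libraries of the 2 groups and the settings used throughout. Other settings called some: at E18.5, 1 zona partner with no filter, a replicate block, all groups in 1 fit or DESeq2, or without wild-type replicate 1, and 2 without wild-type replicate 2. Without that library 1 other oocyte gene and 1 oviduct and surface epithelium gene were also called at E18.5. DESeq2 called 1 general germ cell gene at E18.5, and 1 zona partner, 8 other oocyte genes and 3 red cell genes at 12wk. Of the 9 zona partners, which include the egg surface protein gene Izumo1r and the zona-cleaving protease gene Astl, 8 rose and 1 fell from E18.5 to PND8 in Cdkn1b-null. In wild type only 6 passed the filter, of which 4 rose and 1 fell. Over all tested genes 38.9% rose and 38.5% fell in Cdkn1b-null, and 37.6% rose and 36.9% fell in wild type.

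The genes most like each of the 7 were found by Pearson's r of log2 CPM over the 29 libraries, among 13756 genes. They were Rfpl4 (0.982), Fbxw24 (0.98) and Nlrp14 (0.979) for Zp1, Nlrp5 (0.982), Nlrp14 (0.968) and Bcl2l10 (0.964) for Zp2, and Oas1e (0.976), Rfpl4 (0.976) and Fbxw24 (0.974) for Zp3. For the growth factors they were Kif17 (0.948), Btg4 (0.941) and Kpna7 (0.928) for Gdf9, and Btg4 (0.942), Fbxw21 (0.94) and Trim60 (0.935) for Bmp15. Oosp1 was most like Fbxw28 (0.988), Fbxw16 (0.986) and Eif4e1b (0.985), and Fgf8 was most like Cpsf4l (0.872), Khdc3 (0.852) and Rhpn2 (0.841). The libraries share age groups, so these values mostly follow the age course. After the mean of each group was subtracted, the best match was Nlrp4b (0.89) for Zp1, Nlrp4f (0.911) for Zp2, Lin28a (0.862) for Zp3 and Eif4e1b (0.928) for Gdf9. It was Patl2 (0.832) for Bmp15, Tdrd12 (0.836) for Fgf8 and Fbxw28 (0.886) for Oosp1.

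Among the 7 themselves, the closest pair over the 29 libraries was Zp1 with Zp3 (0.982), and Fgf8 had the lowest values, from 0.529 with Zp2 to 0.694 with Oosp1. After group means were subtracted, Zp1 with Zp3 was at 0.822 and Gdf9 with Oosp1 at 0.878, while Bmp15 with each zona gene was between 0.529 and 0.56. Libraries of a group that were high in one of these genes were thus mostly high in the others, as replicates 1 and 4 of the PND8 wild type and replicate 3 of the 12wk wild type show. Fbxw16, Fbxw21, Fbxw24 and Fbxw28, and likewise the Nlrp genes, belong to families of similar copies between which the counting could split reads.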

How the data were processed

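Ovary RNA was sequenced in 29 libraries of 2 genotypes and 4 ages. The authors deposited expected counts per gene, made with Trim Galore, STAR 2.5.2 and RSEM 1.3.0, with FastQC 0.11.5 for quality, per the submitters' processing notes; genome build, annotation release and strandedness are not given in the sources used here. Of the values above 0, 31.36% were not whole (tolerance 0.005). The file header names 2 combined projects without saying which libraries came from which, so a project batch was not tested.

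Expected counts were rounded and tested with edgeR 4.0.16 (R 4.3.3): TMM factors, filterByExpr, a robust quasi-likelihood F test on the groups compared, and Benjamini-Hochberg adjustment over all tested genes at 0.05. Standard errors are the fold change over the square root of F. The fits were tested on simulated data, with the spread of each gene taken from a trend over all genes. The changed genes were drawn only from those with higher counts. Of 102 genes changed 2-fold, 52% were recovered in the 12wk comparison, which held 17396 genes, and 68.6% in the PND8 comparison, which held 17785. Of 98 genes changed 4-fold, 86.7% and 93.9% were recovered. Whether these rates hold for the zona and growth factor genes was not tested. At 12wk Bmp15, fitted 11.28-fold lower in Cdkn1b-null ovary with a log2 standard error of 1.02, was not called by edgeR. The rates are therefore no measure of how often changes in these genes would be called. Alternatives were DESeq2 1.42.0, other size factors, no filter, a replicate block, 1 fit of all groups and leaving out each library. The ratios to Gdf9 and their alternatives (a pseudocount of 1, leaving out each library) were chosen after seeing the data. All 39 replicate pairs differed by more than sampling noise.

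The 7 genes and the 14 lists were chosen with earlier results of these data known. List genes were named only when called between genotypes, at most 4 per list and comparison by p; Ddx4, Dazl, Figla, Nobox, Nlrp5 and Padi6 were reference genes. Of 141 list symbols 140 were matched. The replicate numbers, which come from the labels, did not pair libraries in the fits used throughout. Only for Cdkn1b-null E13.5 to E18.5 were all 3 correlations of same-numbered libraries over 0.1 (0.23, 0.128 and 0.204). There a replicate block lowered the edgeR calls over all genes from 5018 to 3877.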

Additional observations from a re-analysis of the deposited data

Results flagged for a closer look

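A single library stood apart in 4 of 27 combinations of a gene and a group of 4 libraries, by Dixon's test of the gap to the nearest other library as a share of the range. Its nominal rate of 5% holds for independent normal values. Here genes shared the flagged libraries and some counts were near 0, so the number flagged cannot be weighed against that rate. In wild type at E18.5, replicate 2 held 0.4506 CPM of Zp1, against 0 to 0.0417 CPM in the other 3, and 1.152 CPM of Zp3, against 0 in the other 3. In wild type at 12wk, replicate 3 held 14.66 CPM of Bmp15, against 1.20 to 2.89 CPM, and 0.2819 CPM of Fgf8, against 0 to 0.0311 CPM.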

How the results depend on the processing

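Depth limits Fgf8, fetal Zp1, Zp3 and Oosp1 and the 12wk Cdkn1b-null ratios most. DESeq2 called 1 of the 7 genes between genotypes at E18.5 (Gdf9), 3 at 12wk, 2 in the 4-age interaction and 2 for the change from PND8 to 12wk. With no filter on low counts, 2 were called for wild type E13.5 to E18.5 and 0 for wild type PND8 to 12wk; with all groups in 1 fit, 0 were called for Cdkn1b-null E13.5 to E18.5; the cause was not tested. Leaving out 1 library gave 2 to 5 calls for wild type PND8 to 12wk (5 without 12wk replicate 3) and 1 to 2 for Cdkn1b-null E13.5 to E18.5, and left the other counts unchanged or at 6 to 7.

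Some differences changed sign when 1 library was left out. At E18.5 the genotype difference ran from -0.76 to 0.61 for Zp2 (the latter without wild-type replicate 2) and from -0.5 to 0.08 for Bmp15 (0.08 without wild-type replicate 2, 0.03 without Cdkn1b-null replicate 4). At PND8 it ran from -0.14 to 1.29 for Fgf8. For wild type PND8 to 12wk Bmp15 ran from -1.44 to 0.34, and was at -0.25, -0.2 and -1.44 without PND8 replicate 2, PND8 replicate 3 and 12wk replicate 3. Log2 ratios to Gdf9 between genotypes ran from -0.09 to 0.2 for Zp2 at PND8, from -0.21 to 0.17 for Zp2 at 12wk and from -0.07 to 0.08 for Zp3 at PND8 (-0.02 and -0.03 in the remaining fits with the other sign). Leaving out a library raises the smallest p of the 12wk genotype ratios to 0.0667 or 0.1.

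With a replicate block, Bmp15 in wild type from PND8 to 12wk was at -0.68, and the counts of called genes did not change: 6 for each step from E18.5 to PND8, 3 for wild type PND8 to 12wk, 6 for Cdkn1b-null PND8 to 12wk and 0 between genotypes. The numbers are shared but paired no libraries in the fits used throughout. In the genotype comparisons not every same-numbered pair was over 0.1 (0.0907 to 0.24 for E18.5 genotypes, -0.0316 to 0.207 for PND8, 0.0368 to 0.193 for 12wk). Over all genes, the calls were 62 at PND8 by edgeR and 813 by DESeq2, 258 without a filter, 8 with the block and 0 with all groups in 1 fit; 2 at 12wk by edgeR and 326 by DESeq2; and 814 at E18.5 by edgeR and 1681 by DESeq2.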
